A study of Homo sapiens with 6 samples.

Results

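Myocilin and its relatives of the olfactomedin family are described here at the level of the transcript, in HEK293 cells with an inducible myocilin vector and in cells with the control vector. The members are 9 genes: MYOC, OLFM1, OLFM2, OLFM3, OLFM4, OLFML1, OLFML2A, OLFML2B and OLFML3. They were taken as every probe set of the HG-U133 Plus 2.0 array that the platform annotation assigns to exactly 1 of these genes, which gave 12 probe sets. They stand among 18338 genes and 41751 probe sets in all, and 0 probe sets naming a member were set aside for matching several genes. OLFM1 had 3 probe sets, OLFM3 had 2 and the other 7 genes had 1 each. In RefSeq on GRCh38.p14, MYOC (chr1:171635417-171652688), OLFML2B (chr1:161983192-162023869), OLFML3 (chr1:113979474-113982253) and OLFM3 (chr1:101802560-101996926) lie on chromosome 1. OLFM1 (chr9:135075505-135121184) and OLFML2A (chr9:124777133-124814882) lie on chromosome 9, OLFML1 on chromosome 11, OLFM4 on chromosome 13 and OLFM2 on chromosome 19.

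HEK293 is a long-established cell line from human embryonic kidney. Both groups are stable Tet-On lines kept in hygromycin B and G418, in which doxycycline is meant to switch on the inserted gene from the vector. The control group is the line with the control vector (3 arrays, C1 to C3) and the other is the line with the myocilin vector (3 arrays, M1 to M3). The protocol text, the same for both, gives 0.2 or 1 µg/ml doxycycline for 48 hours without saying which dose went to which array, and the drug is named in the sample descriptions of the myocilin arrays alone. Each line is present once, whether it came from 1 clone is not said, and drug exposure, line and vector cannot be told apart. No label says whether a line's arrays are separate cultures. The p-values thus reflect the array-to-array spread alone, which may be technical.

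Olfactomedin-domain proteins are secreted or membrane-bound glycoproteins that share a domain folded as a beta-propeller. Myocilin is made in large amounts by the trabecular meshwork of the eye, which drains aqueous humour, and mutant forms that are held in the endoplasmic reticulum cause an inherited glaucoma. The relatives act in neural development and synapses (OLFM1 to OLFM3), in the gut epithelium and neutrophils (OLFM4), and in extracellular matrix (the OLFML genes).

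Values are the authors' centred values on a log scale, read as log2 because the range fits that base, which no source states. A value gives the distance of an array from a reference level of that probe set, not an amount of RNA, so probe sets cannot be ranked by level, and whether a transcript lay above background cannot be seen. For the same reason the HEK293 label could not be checked against defining markers. Every array had a median of 0, and standard deviations over probe sets were 0.17 to 0.20. Differences are myocilin minus control. A gene's value is the mean of its probe sets, each fit used limma across all genes or all probe sets, and a change was called at a Benjamini-Hochberg adjusted p under 0.05.

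Of the 9 genes, 1 rose in the myocilin line (MYOC), 1 fell (OLFML3) and 7 did not pass the test. Over all genes 15.6% were called, 8.28% higher and 7.35% lower, so 2 of 9 is near the share for any gene. Of the 12 probe sets, 1 rose and 1 fell, against 11% called over all probe sets, 5.46% higher and 5.56% lower. The groups did not overlap for 4 of the 9 genes (MYOC, OLFM1, OLFML2B and OLFML3), against 34.9% of all genes, nor for 4 of the 12 probe sets, against 30.4%. Without MYOC, the median absolute difference over the other 8 genes was 0.09, and that over all genes was 0.10.

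MYOC is the gene carried by the vector, and its level checks the labels. Its probe set, 210155_at, read -6.71, -8.32 and -8.29 (C1 to C3) and 0.21, 0.20 and 0.24 (M1 to M3). Every myocilin array lay far above every control array. Control and myocilin means were -7.77 ± 0.92 and 0.22 ± 0.02 (SD, n = 3 each), a difference of 7.99 (95% interval 7.20 to 8.78), which is 255-fold at face value (limma adjusted p = 4.7e-06). This was the largest of 18338 gene differences. The 3 control values were the lowest of the 250506 values in the table, the lowest value of any other probe set being -3.26.

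The spread of MYOC was unequal between the lines. C1 stood 1.59 log2 units, or 3.01-fold, above the mean of C2 and C3, while the 3 myocilin arrays lay within 0.04 of each other. MYOC's pooled SD of 0.65 was larger than that of 99.99% of probe sets. Without C1 the difference was 8.52, and without C2 or C3 it was 7.72 and 7.73. Quantile normalisation, which gives all arrays the same extreme values, reduced the difference to 5.09, or 34.1-fold. MYOC was the lowest value on each control array, so this step had to shrink the fold and is no test of its size. How much of the fold reflects the array's floor was not tested.

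**Figure D1:**
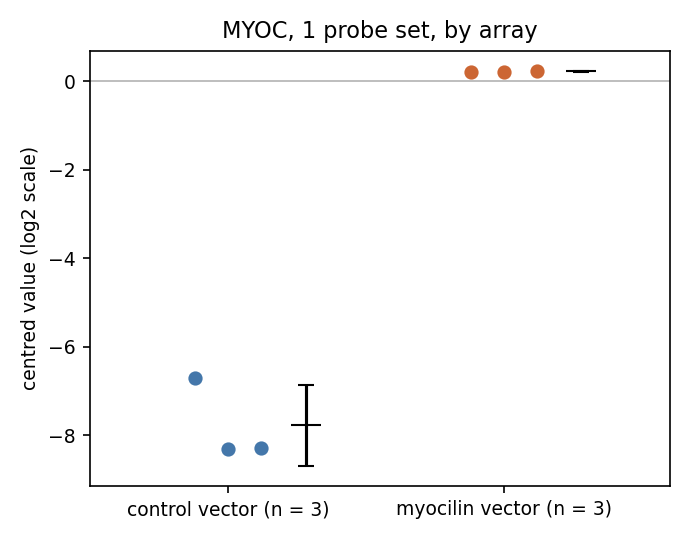
Centred value of the MYOC probe set (vertical axis, log2 scale) on each of the 6 arrays, with the mean and SD of each group beside the points. The control arrays lie between -8.32 and -6.71 with C1 above the other two, and the myocilin arrays lie together between 0.20 and 0.24.

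OLFML3 encodes a secreted matrix glycoprotein that binds bone morphogenetic proteins, and it was the only other member that passed the test. The 250 bases before its annotated start are shown because OLFML3 is the only called member that the vector does not carry. They lie at chr1:113979224-113979473 on the plus strand (RefSeq, GRCh38.p14), and the capitals mark a GC box, which reads GGGCGG on the minus strand.

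OLFML3: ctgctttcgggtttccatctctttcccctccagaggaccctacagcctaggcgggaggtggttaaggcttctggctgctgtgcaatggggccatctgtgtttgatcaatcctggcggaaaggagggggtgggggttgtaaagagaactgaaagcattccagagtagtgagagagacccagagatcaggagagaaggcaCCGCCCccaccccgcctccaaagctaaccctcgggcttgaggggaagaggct

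The window held 1 GC box (GGGCGG on either strand), which 42.6% of the 35116 promoter windows of this length also held. On neither strand did it hold a TATA box (TATAAA, found in 10.7% of windows) or a CCAAT box, spelled as named (32%). It also held no E-box of the letters CACGTG (6.34%), no AP-1 site of the form TGANTCA (6.57%), no ETS core written CCGGAAG (8.52%) and no cyclic AMP response element with the letters TGACGTCA (1.65%). Its GC content of 57.6% was above that of 48.1% of windows. Of the members, 7 had an entry in the promoter table.

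The OLFML3 probe set, 218162_at, read 0.26, 0.38 and 0.36 (C1 to C3) and -0.03, -0.22 and -0.14 (M1 to M3). All 3 myocilin arrays lay below all 3 control arrays. Control and myocilin means were 0.33 ± 0.06 and -0.13 ± 0.09 (SD, n = 3 each). The gene fell by 0.47 on the log2 scale (95% interval -0.62 to -0.31), 1.38-fold, with a limma adjusted p of 0.00225 among genes and 0.00558 among probe sets. The fall was larger in size than that of 96.8% of genes. It ranged from -0.51 to -0.42 when each array was left out in turn, and was called in 6 of 6 of these fits (adjusted p 0.0049 to 0.0112). A test with each gene's own variances, which limma does not moderate, ended the calls of OLFML3 (adjusted p = 0.0916) and of MYOC (adjusted p = 0.097).

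OLFM1, also called noelin or pancortin, is a secreted neural glycoprotein that binds the Nogo receptor and AMPA receptor complexes. Its gene value, over 3 probe sets, was -0.61, -0.41 and -0.49 in C1 to C3 and -0.29, -0.31 and -0.26 in M1 to M3. The groups did not overlap. The difference was 0.22 (95% interval 0.07 to 0.36) and narrowly missed the threshold (limma adjusted p = 0.0516). It was called without C2 (0.26, adjusted p = 0.0404), with quantile normalisation (0.22, adjusted p = 0.049) and with array weights (0.22, adjusted p = 0.0389), and not in the other 10 alternatives, where the adjusted p reached 0.976.

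The probe sets of OLFM1 differed in size. Probe set 213131_at read -1.34, -0.79 and -1.30 (C1 to C3) and -0.76, -0.64 and -0.71 (M1 to M3), a difference of 0.44 (limma adjusted p = 0.0617). C2 stood close to the myocilin arrays, and without it the difference was 0.62 and was called (adjusted p = 0.00488). Probe set 205591_at read -0.44, -0.25 and -0.24 against -0.11, -0.32 and -0.09, so the groups overlapped and the difference was 0.14. Probe set 210924_at read -0.04, -0.19 and 0.06 against 0.00, 0.03 and 0.01, a difference of 0.07. Whether the probe sets detect different OLFM1 transcripts was not tested.

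**Figure D2:**
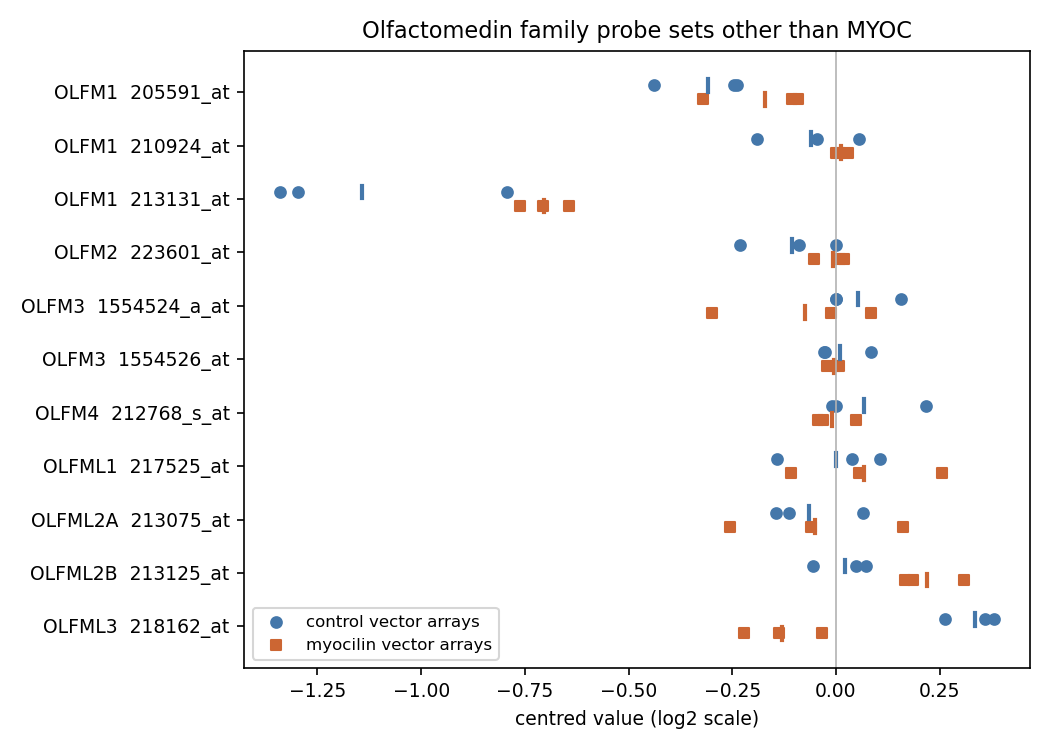
Centred values (horizontal axis, log2 scale) of the 11 probe sets of the 8 genes other than MYOC, control arrays as circles and myocilin arrays as squares, with short bars for group means. OLFML3, OLFML2B and OLFM1 213131_at show no overlap between the lines, and the other probe sets overlap.

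Genes around OLFM1 on chromosome 9 were higher in the same arrays. The median of its 50 nearest measured genes was -0.14, -0.14 and -0.18 in C1 to C3 and 0.06, 0.03 and 0.08 in M1 to M3. The neighbours' median difference was 0.21, close to the 0.22 of OLFM1 itself, and 24 of the 50 rose and 0 fell, against 8.28% of all genes that rose. With this median subtracted, OLFM1 differed by 0.00 (SE 0.06, limma adjusted p = 0.976). That holds for the mean of its 3 probe sets, whose own differences of 0.44, 0.14 and 0.07 lay on both sides of the neighbours' 0.21. The OLFML3 neighbours on chromosome 1 did not move in this way: their median difference was 0.00, 4 rose and 5 fell, and OLFML3 still fell by 0.47 after subtraction (adjusted p = 0.00232). MYOC kept a difference of 8.05 after subtraction of its neighbours.

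**Figure D3:**
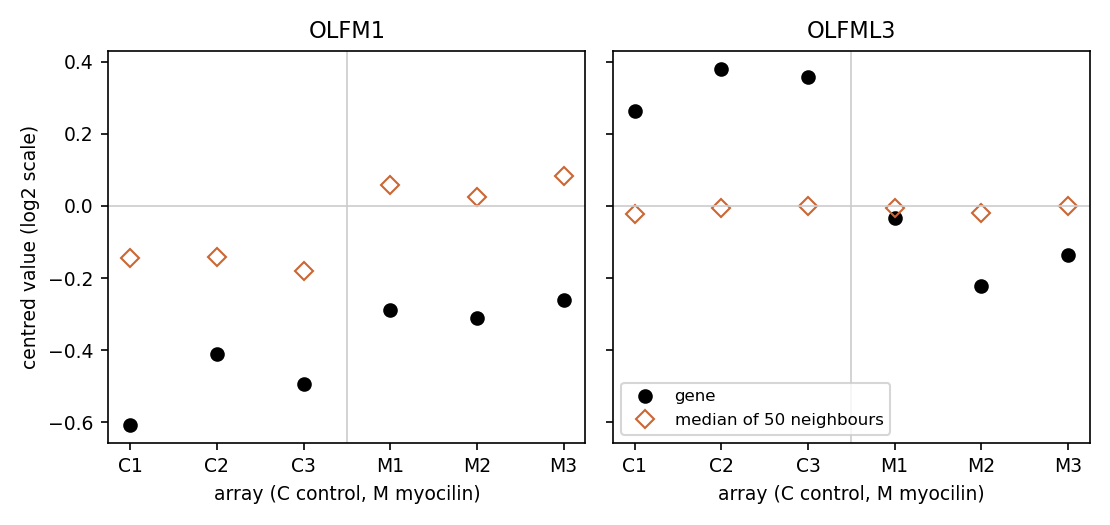
Gene value (filled circles) and the median of the 50 nearest measured genes (open diamonds) on each array, in centred log2 units, for OLFM1 and OLFML3. The OLFM1 neighbours step from between -0.18 and -0.14 on control arrays to between 0.03 and 0.08 on myocilin arrays, and the OLFML3 neighbours stay between -0.02 and 0.00.

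OLFML2B, a matrix protein of the photomedin pair, also had groups that did not overlap. Its probe set, 213125_at, read 0.05, -0.06 and 0.07 (C1 to C3) and 0.19, 0.31 and 0.17 (M1 to M3). The difference of 0.20 (95% interval 0.05 to 0.34) did not pass the threshold (limma adjusted p = 0.0681). It was called in 0 of 13 alternatives and kept its sign in all 13, with values of 0.15 to 0.23. Its neighbours had a median difference of 0.03, and subtracting them left it at 0.20.

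OLFML2A, the related photomedin, differed by 0.01 (95% interval -0.22 to 0.25). It read 0.07, -0.11 and -0.15 (C1 to C3) and 0.16, -0.06 and -0.26 (M1 to M3), and the myocilin arrays enclosed the control arrays. Its pooled SD of 0.17 was larger than that of 85.5% of probe sets. Its sign turned in 4 of 13 alternatives, among them the subtraction of neighbours, which left -0.07. It lies on chromosome 9, as OLFM1 does, and the median difference of its neighbours was 0.09, against 0.02 over all genes. Of these 50 neighbours 39 had a positive difference, 5 were called up, near the 8.28% of all genes, and 1 down. The neighbours' median was -0.02, -0.05 and -0.03 in C1 to C3 and 0.04, 0.04 and 0.08 in M1 to M3.

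OLFM2, a secreted relative of OLFM1, read -0.09, -0.23 and 0.00 (C1 to C3) and 0.01, -0.05 and 0.02 (M1 to M3). Its difference was 0.10 (95% interval -0.06 to 0.26, limma adjusted p = 0.386), and C3 lay inside the range of the myocilin arrays. OLFM3, a secreted partner of the same synaptic complexes, differed by -0.07 (95% interval -0.22 to 0.07). Its probe set 1554524_a_at read 0.16, 0.00 and 0.00 against -0.01, -0.30 and 0.08, with M2 the lowest. Its probe set 1554526_at stayed between -0.03 and 0.09 on all 6 arrays, with a pooled SD larger than that of 7.89% of probe sets.

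OLFM4, a marker of intestinal stem cells and a granule protein of neutrophils, differed by -0.08 (95% interval -0.24 to 0.09). It read 0.22, -0.01 and 0.00 (C1 to C3) and -0.03, -0.04 and 0.05 (M1 to M3), and C1 alone stood apart. Without C1 the difference was 0.00. Its probe set ends in _s_at, which on this platform marks probes that match more than 1 transcript. OLFML1, a secreted olfactomedin-like protein, read 0.04, -0.14 and 0.11 against 0.26, -0.11 and 0.06, a difference of 0.07 (95% interval -0.16 to 0.29) whose sign turned in 2 of 13 alternatives.

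For the 7 genes that did not pass the test, the intervals of the gene values, which are means over probe sets, limit how large a change in that mean could be. The widest bound was 1.28-fold for OLFM1 and 1.27-fold for OLFML2B. For OLFM2, OLFM3, OLFM4, OLFML1 and OLFML2A it was 1.16-fold to 1.22-fold in either direction. Single probe sets of the genes with several reached further: the interval of OLFM1 213131_at ran from 0.15 to 0.73 on the log2 scale, or up to 1.66-fold, and that of OLFM3 1554524_a_at from -0.36 to 0.10, or up to 1.28-fold. These bounds are on the authors' centred scale, and they do not show that the genes are alike in the 2 lines.

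**Figure D4:**
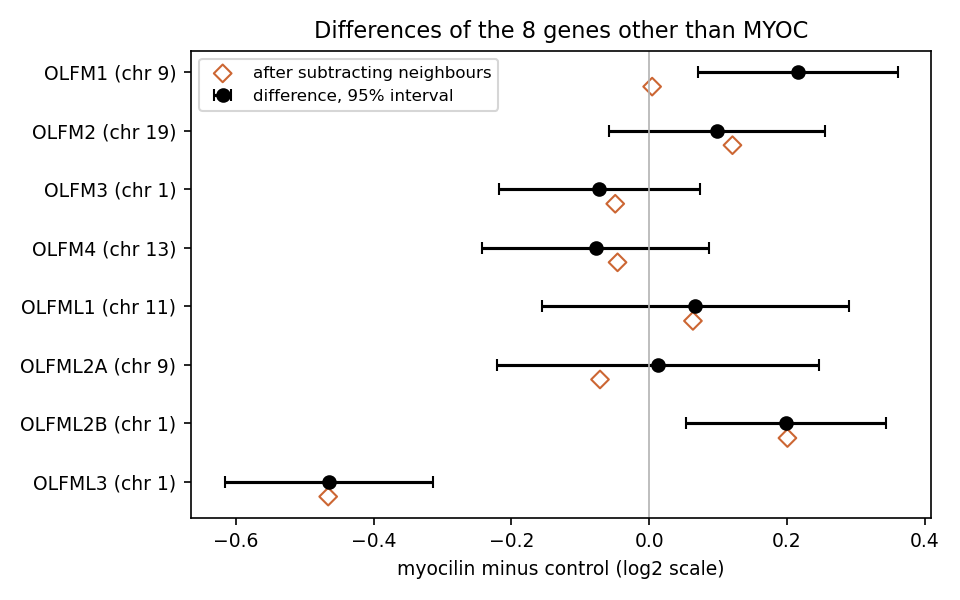
Difference of each of the 8 genes other than MYOC (horizontal axis, myocilin minus control, log2 scale) with its 95% interval, and as open diamonds the same difference after subtracting the median of 50 chromosomal neighbours. OLFML3 lies at -0.47 by either measure, while OLFM1 moves from 0.22 to 0.00.

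The genes whose pattern over the 6 arrays was most like that of a called member were found by the root mean square distance between standardised values, among 464 non-member genes with an absolute difference of at least 0.5. For MYOC these were AATF (distance 0.05), VASP (0.06) and DPP7 (0.06), which rose by 0.56, 0.62 and 0.74. For OLFML3 they were HHIP (0.11), NREP (0.11) and DNASE1L1 (0.14), at -0.66, -0.55 and -0.52. Any gene with a clean step between the lines scores well on this measure, and the likeness is a description of 6 arrays.

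Beyond the members, the family includes gliomedin and the latrophilins, adhesion receptors with an olfactomedin domain. Of 4 such genes 0 rose and 1 fell, against 8.28% and 7.35% of all genes (median difference -0.06, against 0.02 over all genes). ADGRL2, which encodes latrophilin 2, read 0.26, 0.19 and 0.28 (C1 to C3) and -0.09, -0.11 and -0.14 (M1 to M3), a fall of 0.35 with no overlap (limma adjusted p = 0.00317). Its only probe set also ends in _s_at. ADGRL1 at 0.02, ADGRL3 at -0.14 and GLDN at 0.09 did not pass.

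Lists of reported binding partners and of genes related to them held both rises and falls. Of all genes 8.28% were called higher and 7.35% lower, and the small counts of each list stand beside these shares. In the list for the Nogo receptor complex, which OLFM1 and OLFM2 bind, 2 of 7 genes rose and 1 fell (median 0.17). The receptor paralogue RTN4RL1 read -0.56, -0.25 and -0.05 against 0.15, 0.26 and 0.43, a rise of 0.57 (limma adjusted p = 0.0146, and 0.0536 without M3). The co-receptor LINGO1 rose by 0.36, the co-receptor TNFRSF19 fell by 0.24, and the Nogo receptor gene RTN4R itself read 0.17 without passing. TNFRSF19 was called through 1 of its 3 probe sets, at -0.45 against -0.18 and -0.09, and the call was lost without C1, C2, M1 or M3 (adjusted p up to 0.09).

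Among Wnt antagonists and Frizzled receptors, 1 of 6 rose and 1 fell, against 8.28% and 7.35% of all genes (median -0.02). The rise was in SFRP1, which binds Wnt proteins, and the fall in WIF1, which does so too. The 4 SFRP1 probe sets read 1.66, 1.04, 0.39 and 0.08, the last not past the threshold, and all 4 end in _s_at. Of the ERBB receptors ERBB3 rose, through 2 of 5 probe sets at 0.94 and 0.89, the others at 0.04 to 0.18, and ERBB2 read -0.16 without passing. The 4 AMPA receptor subunits differed by -0.03 to 0.02 (median 0.01), and by limma 0 were called and 0 had an unadjusted p under 0.05. Of the 8 partners of OLFM4 and OLFML3, limma called 0 (median 0.01) and 3 had an unadjusted p under 0.05. With each gene's own variances in place of limma's moderated ones, 0 genes were called in both lists and 2 of 56 over all lists. The shares of all genes for the unadjusted p and for that test are not given here. At unadjusted p the share is no smaller than the 15.6% of genes called by limma after adjustment.

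Among matrix and scaffold partners of myocilin, 2 of 6 rose and 1 fell, against 8.28% and 7.35% of all genes (median 0.07). FBN1, the main microfibril protein, rose by 0.83 with all 3 probe sets called (0.59 to 1.02). TIMP3, a metalloprotease inhibitor, rose by 0.33 with 3 of 4 probe sets called, all 4 ending in _s_at. The matrix glycoprotein FN1 fell by 0.45 with 4 of 7 probe sets called. All 4 called FN1 probe sets end in _x_at or _s_at, and the FN1 call ended with such probe sets dropped (-0.17, limma adjusted p = 0.177). Of 7 genes for the handling of myocilin in the endoplasmic reticulum and its cleavage, 0 rose and 2 fell (median -0.13), the chaperones HSP90B1, at -0.41, and CALR, at -0.34. HSP90B1 read -0.27, -0.29 and -0.02 against -0.65, -0.43 and -0.73 (limma adjusted p = 0.0216), and its call was lost without C3, M1 or M3 (adjusted p up to 0.0746). Of its 2 probe sets, both ending in _x_at, 1 was called (-0.42) and the other was not (-0.40, limma adjusted p = 0.13). HSPA5, the main chaperone of that compartment, differed by -0.13 without passing (adjusted p = 0.221).

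Other genes linked to glaucoma held 1 rise and 2 falls among 12 measured (median -0.004). CYP1B1, a cytochrome P450 enzyme, rose by 0.24 (limma adjusted p = 0.0335) with 0 of its 4 probe sets called singly, and the call held in 1 of the 6 fits that left out an array, the one without C2 (adjusted p up to 0.122 in the others). PAX6, an eye transcription factor, fell by 0.27 and the caveolin gene CAV1 by 0.25, each with 1 of 2 probe sets called. The PAX6 call was lost without M1 (adjusted p = 0.0686) and the CAV1 call without C3, M1 or M3 (adjusted p up to 0.0615) and with _s_at probe sets dropped (adjusted p = 0.062). Over all 9 lists 7 of 56 genes rose and 8 fell, against 8.28% and 7.35% of all genes. The lists were chosen with earlier results of these data known, so the shares are not an independent comparison. Of the 15 called genes, 9 were called in each of the 6 fits that left out an array.

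**Figure D5:**
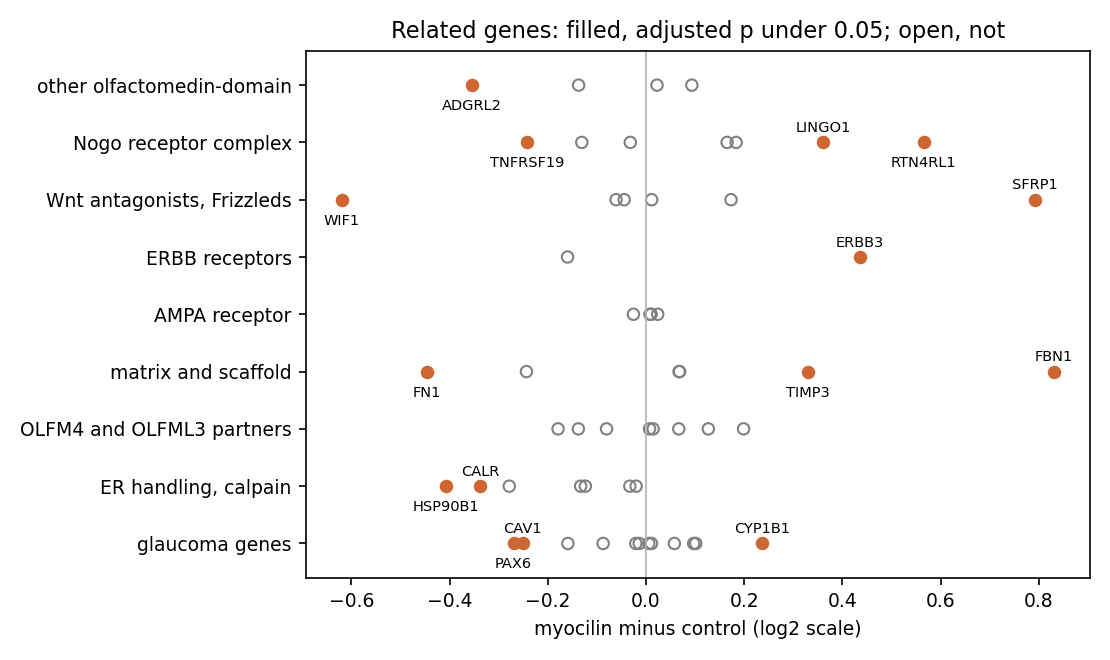
Differences of the 56 related genes (horizontal axis, myocilin minus control, log2 scale) by list, filled where the limma adjusted p was under 0.05. Filled points lie on both sides of 0 in 4 of the 9 lists, at -0.62 for WIF1 to 0.83 for FBN1, and the AMPA receptor subunits lie together near 0.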

How the data were processed

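Transcript levels were measured on 6 arrays, 3 for each of 2 lines, grouped by source name; replicates were numbered in accession order and are not paired. The deposited table holds log2-scale values (the base is inferred) that were centred by the authors per probe set; how background, summarisation and normalisation were handled is not stated in any source used here. Probe sets with exactly 1 gene in the platform annotation (37460 of 41751) were named, 37416 of them through the RefSeq gene table of GRCh38.p14. Genes were the mean of their probe sets. The lines were compared in R 4.3.3 by two-sided moderated tests of limma 3.58.1, adjusted by Benjamini and Hochberg's method over all genes or all probe sets. The fit was tested on simulated data. Neighbours were the 50 measured genes with the nearest start on the chromosome. Promoter windows are the 250 bases before a start in the RefSeq table. Precision is limited by 3 arrays per group.

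The 9 members and 9 lists of related genes were chosen with earlier results of these data known. The naming rule took all members, the genes of each list past the threshold, up to 4 by p, and the 3 genes most like each called member; other genes given with values were named after these were seen. In the lists, 56 of 59 genes were measured; the other 3 were not analysed here. Alternatives were quantile normalisation, array weights, a trended robust eBayes, a Welch test per gene or probe set, each array left out, the _x_at and _s_at probe sets dropped, 1 probe set per gene by ID, and neighbours subtracted. The planned filter on dim probe sets was not run, since centred values hold no brightness.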

Additional observations from a re-analysis of the deposited data

How the results depend on the processing

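The counts of member genes and of member probe sets were 1 up and 1 down in each case. The count up was 2 genes under quantile normalisation, and 2 genes and 2 probe sets with array weights. With each array left out it ranged from 1 to 2 for genes and for probe sets, and the count down from 1 to 1. In those fits 8.8% to 12.1% of all genes and 5.46% to 7.86% of all probe sets were called. The Welch test, which uses each feature's own variances, called 0 genes and 0 probe sets in either direction. By limma 4 genes and 4 probe sets had an unadjusted p under 0.05. The shares over all features for the Welch test, quantile normalisation, array weights and the unadjusted p are not given here. The unadjusted share is no smaller than the 15.6% of genes and 11% of probe sets called by limma after adjustment. Under the Welch test the adjusted p was 0.097 for MYOC and 0.0916 for OLFML3. In the other 12 alternatives MYOC and OLFML3 were called, in the same direction each time. With neighbours subtracted, OLFML2A read -0.071 in place of 0.01. With arrays left out, OLFML1 and its probe set 217525_at ranged from -0.027 to 0.16, OLFML2A and its probe set 213075_at from -0.094 to 0.12, and OLFM3 probe set 1554526_at from -0.036 to 0.021. The cause of these changes was not tested. With the _x_at and _s_at probe sets dropped, OLFM4 had none left, and of the 15 related genes called, 8 were still called, FN1 (-0.17) and CAV1 (-0.23) were not, and ADGRL2, SFRP1, TIMP3, HSP90B1 and CYP1B1 had none left. There 7 of the 18 list counts moved, against 0 under quantile normalisation and 1 to 5 with an array left out. A count moved if it went to or from 0 or changed by over 1.5 times. No paired analysis was possible because the labels' running numbers are not shared between the lines. The filter on dim probe sets was not run. Precision is limited by 3 arrays per line, and signal over background is unknown.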

Other observations

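The reference level from which the authors centred MYOC lay close to the myocilin arrays, which read 0.20 to 0.24, and far above the control arrays, which read -8.32 to -6.71. MYOC held an exact 0 on 0 of the 6 arrays. An exact 0 on at least 1 array was found for 57.3% of all probe sets and on 2 or more arrays for 10.7%. Among the members, OLFM3 probe set 1554524_a_at held an exact 0 on 2 arrays, C2 and C3. OLFM1 probe set 210924_at, the OLFM2 probe set and the OLFM4 probe set held it on 1 array each, and the other 8 member probe sets on 0.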
